A study of Mus musculus with 6 samples.

Results

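The 7 mature miRNAs described here come from hairpins that lie inside the mouse Hox gene clusters: mmu-miR-10a-5p, mmu-miR-10a-3p, mmu-miR-10b-5p, mmu-miR-10b-3p, mmu-miR-196a-5p, mmu-miR-196b-5p and mmu-miR-615-3p (the species prefix is left out from here on). They are 7 of the 1101 miRNA labels in the deposited table of RISC-bound short RNAs, found by their exact label, and they cover 43 of its 143934 read sequences. The set was chosen by its normalised read count (RPM) in these same libraries and ages. Levels and age differences of the 7 miRNAs are therefore given as a description with no p-value. Counts of members called are set beside those for all miRNAs. Tests were run only on read length, 5′ start and match to the hairpin within a miRNA, and on shares of paralogs and arms. These shares are ratios of the label sums that the choice used, so nothing is read from their p-values.

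Short RNAs bound to Argonaute proteins (R-sRNAs) were pulled down with a GW182 peptide and sequenced (Ago-RP-Seq) from the cortex and hippocampus, combined, of BL6 mice (C57BL/6J in the methods of the study). There were 3 libraries of mice of 2 months (2M) and 3 of mice of 18 months (18M). The same methods give the animals as males, and neither age carried a transgene or a treatment. The labels do not say that the replicates of an age came from separate animals, so p-values measure only the spread between these libraries, which may be technical.

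Hox genes are transcription factors that give cells their position along the head-to-tail axis, and their clusters are switched on in the hindbrain, spinal cord and trunk while the forebrain lies in front of their expression domain. The miR-10, miR-196 and miR-615 genes sit between or within Hox genes and are known to follow the domain of their neighbours. In nervous tissue miR-10 is therefore known as a small RNA of the spinal cord and hindbrain, and miR-196 as a still more caudal one, with Hox transcripts among the known targets of both.

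The mature sequences (RefSeq, GRCm38.p6, all 7 matched) are shown because single bases separate the paralogs, and their seeds decide which other miRNAs share their targets. Capitals mark the seed, bases 2 to 8.
miR-10a-5p: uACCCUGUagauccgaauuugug
miR-10b-5p: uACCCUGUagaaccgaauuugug
miR-10a-3p: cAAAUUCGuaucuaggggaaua
miR-10b-3p: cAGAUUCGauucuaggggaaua
miR-196a-5p: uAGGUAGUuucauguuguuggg
miR-196b-5p: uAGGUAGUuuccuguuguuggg
miR-615-3p: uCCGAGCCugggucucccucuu
miR-10a-5p and miR-10b-5p share a seed and differ at 1 of 23 bases, U12A, counted from the 5′ end with the miR-10a-5p base first. miR-196a-5p and miR-196b-5p share another seed and differ at 1 of 22 bases, A12C, with the miR-196a-5p base first. Every retained read that covered position 12 held one of the paralogs' own letters there, and no member read carried more than a single miRNA label. The paralogs could therefore be counted apart.

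In GENCODE M21 (GRCm38), Mir10a lies on the plus strand at chr11:96317165-96317274, overlapping no other gene, 993 bp before Hoxb4. Mir10b, at chr2:74726070-74726137 on the plus strand, lies in introns of Hoxd3 and Hoxd4. The mature miR-196a-5p has 2 hairpin genes whose reads cannot be told apart. These are Mir196a-1 at chr11:96265164-96265265, plus strand, 6192 bp from Hoxb9, and Mir196a-2 at chr15:102973350-102973434, plus strand, in an intron of a Hoxc5 transcript. Mir196b, at chr6:52230081-52230165 on the minus strand, lies within Hoxa9, in exon or intron depending on the transcript. Mir615, at chr15:103014910-103015001 on the plus strand, lies in an intron of Hoxc5.

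The RPM values were whole multiples of the worth of 1 read, so reads could be recovered: 19272046 to 25080484 per library. A working floor of 3 reads was set here, at 0.120 to 0.156 RPM. Each deposited read sequence held at least 6 reads over the libraries together, so rarer sequences cannot be seen. All values were whole within 0.0129 of a read. The sum of the 7 miRNAs was small in every library, between 12.1 and 138 RPM, and rested on 6741 reads in all. Of the 7, 2 passed the filter of a mean of 10 RPM used for the fit over all miRNAs (miR-10a-5p and miR-10b-5p), and 5 lay under it.

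miR-10a-5p was the most abundant of the 7, and it was highest in 2 libraries of the younger age. It was at 9.57, 66.2 and 49.9 RPM in 2M replicates 1, 2 and 3 and at 9.65, 15.4 and 6.85 RPM in 18M replicates 1, 2 and 3. Mean levels were 41.9 ± 29.1 RPM for the 2M libraries and 10.6 ± 4.36 RPM for the 18M libraries (SD, n = 3 each). 2M replicates 2 and 3 stood above all other libraries, while 2M replicate 1 lay within the range of the 18M libraries, so that the ages overlapped. Against the 3 libraries of 18M together, the level was 6.13 times as high in 2M replicate 2 (95% exact interval 5.61 to 6.71) and 4.63 times in 2M replicate 3 (4.20 to 5.10). In 2M replicate 1 the same ratio was 0.888 (0.755 to 1.04). These intervals, like all intervals and floors below, hold for counting error alone, because the deposited values hold no molecular identifiers.

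miR-10b-5p, its paralog from the Hoxd cluster, was at 7.77, 67.5 and 14.5 RPM in 2M replicates 1, 2 and 3 and at 3.94, 11.3 and 4.34 RPM in the 18M replicates in the same order. Its 2M mean was 29.9 ± 32.7 RPM and its 18M mean 6.54 ± 4.16 RPM (SD, n = 3 each). Only 2M replicate 2 stood far above the others. 2M replicate 3 was 2.15 times the 18M libraries (1.85 to 2.49), compared with 9.98 times (8.98 to 11.1) in 2M replicate 2.

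**Figure D1:**
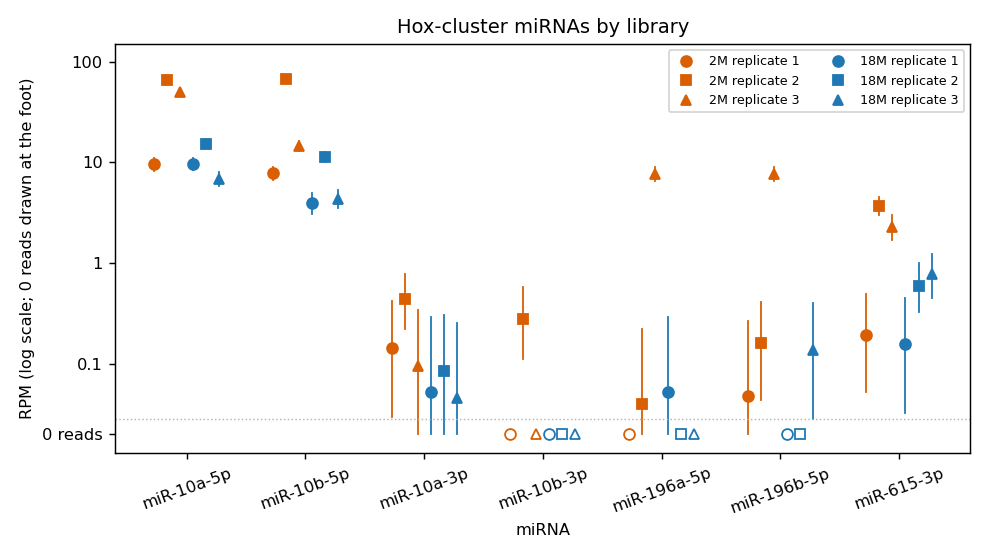
RPM of each of the 7 Hox-cluster miRNAs in each library, on a log scale, with 95% exact binomial intervals as vertical lines (ended at the foot where they reach below it) and libraries without a read drawn as open symbols at the foot. miR-10a-5p and miR-615-3p are highest in 2M replicates 2 and 3, miR-10b-5p in 2M replicate 2, and both miR-196 miRNAs reach 7.67 RPM in 2M replicate 3 alone.

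The miR-196 paralogs were close to absent from all libraries but a single one. miR-196a-5p was at 7.67 RPM (161 reads) in 2M replicate 3. It had 1 read in 2M replicate 2, 1 read in 18M replicate 1 and none in the other libraries, where the 95% exact interval reached up to 0.157 to 0.176 RPM. miR-196b-5p likewise was at 7.67 RPM (161 reads) in 2M replicate 3, with 1 and 4 reads in 2M replicates 1 and 2. Of the 18M replicates only the third held any, with 3 reads. The ratio of 2M replicate 3 to the 18M libraries together was 496 (87.7 to 19704) for miR-196a-5p, against 1 read, and 165 (55.6 to 810) for miR-196b-5p, against 3 reads. The other arm of the Mir196b hairpin, miR-196b-3p, was found in the same library only, with 8 reads (0.381 RPM).

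miR-615-3p, from the Hoxc cluster, had the same order of the 2M libraries as miR-10a-5p, at 0.191, 3.71 and 2.29 RPM in 2M replicates 1, 2 and 3 (4, 93 and 48 reads). The 18M replicates held 0.156, 0.597 and 0.776 RPM (3, 14 and 17 reads). 2M replicate 1 again lay within the range of the 18M libraries. The ratio to the 18M libraries was 7.05 (4.71 to 10.8) in 2M replicate 2 and 4.35 (2.74 to 6.96) in 2M replicate 3.

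The star strands of the miR-10 hairpins were at or near the floor. miR-10a-3p had 3 reads in 2M replicate 1, 11 in 2M replicate 2 and 2 in 2M replicate 3. The 18M libraries held 1, 2 and 1 of its reads. On the RPM scale its ages did not overlap (lowest 2M value 0.095, highest 18M value 0.085 RPM), although both of these values stand for 2 reads. It was the only member of the 7 whose ages did not overlap. Among all 1101 labels, 14.5% did not overlap with 18M as the lower age. miR-10b-3p was seen in 2M replicate 2 alone, with 7 reads (0.279 RPM). Of 7 related labels searched for, 4 were in the table, and miR-196a-1-3p, miR-196a-2-3p and miR-615-5p were not among them.

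By mean RPM over the 6 libraries the order was miR-10a-5p (26.3 ± 25.3), miR-10b-5p (18.2 ± 24.5), miR-196b-5p (1.34 ± 3.10), miR-196a-5p (1.29 ± 3.12), miR-615-3p (1.29 ± 1.42), miR-10a-3p (0.143 ± 0.149) and miR-10b-3p (0.0465 ± 0.114; SD, n = 6). The difference of miR-10a-5p and miR-10b-5p was smaller than the spread between libraries, although miR-10a-5p was the higher of the pair in 5 of 6 libraries. The same held for miR-196b-5p, miR-196a-5p and miR-615-3p. miR-615-3p exceeded miR-196a-5p in 5 of 6 libraries in spite of its lower mean, which rests for miR-196a-5p on 2M replicate 3. miR-10b-5p exceeded miR-196b-5p, and miR-615-3p exceeded miR-10a-3p, in 6 of 6 libraries.

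For the comparison of the ages, the 2M sum of the 7 miRNAs was 79.4 ± 60.3 RPM and the 18M sum 17.8 ± 8.37 RPM (SD, n = 3 each). Without 2M replicate 2 the difference of 18M and 2M was -32.1 RPM, compared with -61.6 RPM with all libraries, and without 2M replicate 1 it was -92.4 RPM. In the limma fit over the 474 miRNAs that passed the filter, the log2 difference of 18M and 2M was -1.57 (SE 0.70) for miR-10a-5p and -1.61 (SE 0.77) for miR-10b-5p, on the log2(RPM + 1) scale. At an adjusted p of 0.05, 21 of the 474 miRNAs were called lower at 18M (4.43%) and 2 higher, and of the 2 members in the fit 0 were called. The members were chosen on this contrast, so nothing is read from that count. With DESeq2 the split over all miRNAs was 31 lower and 15 higher at 18M. With 5 libraries in place of 6 the number of miRNAs called by limma was 0 without 2M replicate 2 and 0 without 2M replicate 3 (73 and 80 at an unadjusted p under 0.05). It was 3 without 2M replicate 1, and 5, 15 and 2 without 18M replicates 1, 2 and 3, so that the part of a single library and the loss of a replicate cannot be told apart.

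Among the 474 miRNAs, miR-10b-5p had the second and miR-10a-5p the third largest spread over the 6 libraries, with an SD of log2(RPM + 1) of 1.39 and 1.30 against a median of 0.24. The pituitary miRNA miR-375-3p ranked first, from a different library, 2M replicate 1. Among the 2M libraries alone miR-10b-5p and miR-10a-5p ranked 2 and 5 (SD 1.53 and 1.44, median 0.18). Among the 18M libraries they ranked 14 and 46 (SD 0.73 and 0.53, median 0.18), with the highest value of both in 18M replicate 2. The set was chosen on RPM in these same libraries, so nothing is read from these ranks. Without 2M replicate 2, miR-10b-5p fell under the filter of a mean of 10 RPM.

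**Figure D2:**
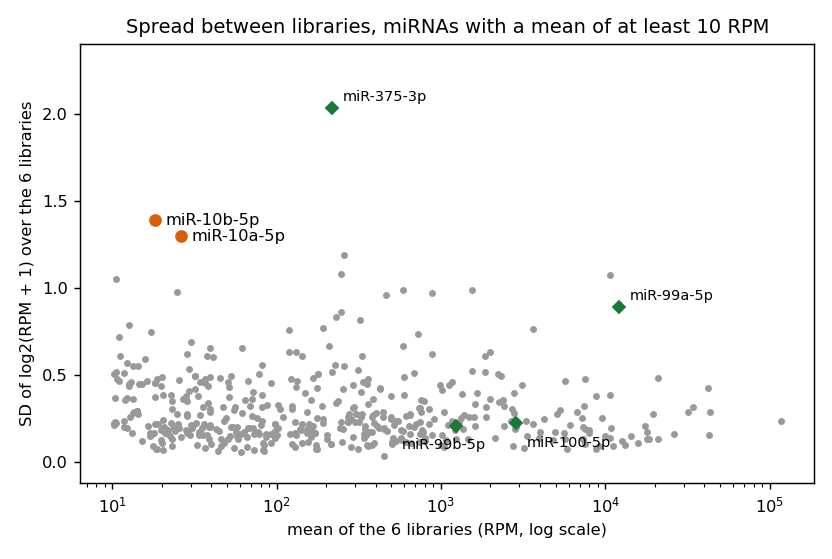
Each point is 1 of 474 miRNAs, with its mean RPM over the 6 libraries on a log axis and the SD of log2(RPM + 1) over the libraries on the other. miR-10b-5p (1.39) and miR-10a-5p (1.30) lie above all others but miR-375-3p. Of their relatives miR-99a-5p has an SD of 0.89, miR-99b-5p of 0.21 and miR-100-5p of 0.22. The members were chosen on RPM in these libraries, so nothing is read from their place.

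The relatives miR-99a-5p, miR-99b-5p and miR-100-5p belong to the same ancient family, but their genes lie outside the Hox clusters. Their mature sequences, with the seed in capitals, show how near they are.
miR-99a-5p: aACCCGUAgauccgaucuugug
miR-99b-5p: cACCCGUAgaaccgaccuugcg
miR-100-5p: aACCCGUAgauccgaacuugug
These 3 miRNAs were far more abundant than miR-10, and their levels had another order of libraries. miR-99a-5p was at 16289, 12098 and 15881 RPM in 2M replicates 1, 2 and 3 and at 13968, 3170 and 11323 RPM in 18M replicates 1, 2 and 3. 2M replicate 2, the library highest in the 7 miRNAs, held the lowest 2M level of miR-99a-5p, of miR-99b-5p (922 RPM) and of miR-100-5p (2746 RPM). Their log2 differences of 18M and 2M were -0.88 (SE 0.54) for miR-99a-5p, 0.23 (SE 0.16) for miR-99b-5p and -0.25 (SE 0.16) for miR-100-5p.

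The balance of the paralogs differed between 2M replicates 2 and 3, the libraries with the highest levels of both, although miR-10b-5p in 2M replicate 3 was not far above 18M replicate 2 (14.5 and 11.3 RPM). miR-10b-5p made up 44.8% (95% Wilson interval 39.8 to 49.9), 50.5% (48.8 to 52.2) and 22.6% (20.4 to 24.9) of the reads of both in 2M replicates 1, 2 and 3. In the 18M replicates it made up 29.0% (23.8 to 34.8), 42.4% (38.6 to 46.3) and 38.8% (32.9 to 45.0). 2M replicates 2 and 3 thus held miR-10a-5p and miR-10b-5p in ratios of 0.981 and 3.43, and their intervals did not overlap. 2M replicate 2, which had the higher share of miR-10b-5p, had 5 reads of the miR-196 paralogs, and 2M replicate 3 had 322. By age the share was 39.3 ± 14.8% at 2M and 36.7 ± 6.94% at 18M (exact permutation test, two-sided, p = 0.80, adjusted p = 0.90 over 9 measures). The share is a ratio of the sums used for the choice, so nothing is read from this p-value.

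**Figure D3:**
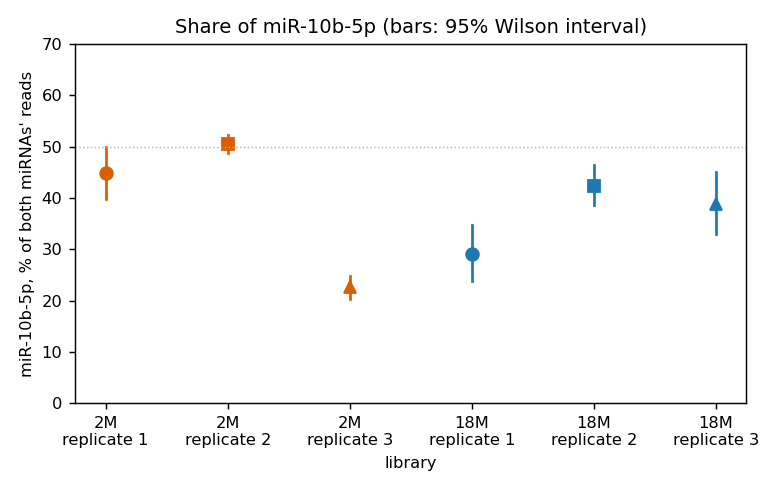
Share of miR-10b-5p in the reads of miR-10a-5p and miR-10b-5p in percent, for each library, with 95% Wilson intervals and a dotted line at equal shares. The share is 50.5% in 2M replicate 2 and 22.6% in 2M replicate 3, and the 18M libraries lie between 29.0% and 42.4%.

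The reads of miR-10 differed from the reference in length and start. The main reads of both were 22 nt long, 1 base shorter at the 3′ end than the RefSeq form, and held 53.5% of miR-10a-5p and 70.5% of miR-10b-5p. The third most abundant miR-10a-5p read began 1 base later, which moves the seed by 1 base. The pair below shows the shift, in the letters of the reads with bases 2 to 8 in capitals.
miR-10a-5p main read: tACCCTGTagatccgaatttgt
miR-10a-5p shifted read: aCCCTGTAgatccgaatttgtg
Reads with a shifted 5′ end made up 31.3% (95% Wilson interval 25.3 to 38.1), 28.9% (26.8 to 31.1) and 20.2% (17.8 to 22.7) of miR-10a-5p in 2M replicates 1, 2 and 3. In 18M replicates 1, 2 and 3 they made up 30.1% (24.0 to 37.0), 28.5% (24.1 to 33.4) and 38.7% (31.2 to 46.7). For miR-10b-5p the share lay between 4.91% and 13.2%, the highest from 10 of 76 reads.

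The shifted share was higher for miR-10a-5p than for miR-10b-5p in 6 of 6 libraries, by 21.8 ± 7.48 percentage points (SD, n = 6, range 12.0 to 33.4). An exact sign-flip permutation test over the libraries, two-sided, gave p = 0.031, the smallest it allows, and 0.047 adjusted over 3 measures. The same test for the share of reads that are no exact stretch of the hairpin gave the same values, with 6.10 ± 1.69% for miR-10a-5p and 3.29 ± 1.08% for miR-10b-5p (SD, n = 6). Mean read length did not pass (22.02 ± 0.11 nt and 22.05 ± 0.10 nt, SD, n = 6, exact p = 0.56). This comparison of the paralogs was chosen after their values were seen. Over all reads together, 26.9% of miR-10a-5p lay off its main seed, rank 68 of 474 miRNAs, and 8.28% of miR-10b-5p, rank 163, against a median of 3.93%. The share was 1.72% to 2.28% for miR-99a-5p, miR-99b-5p and miR-100-5p.

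**Figure D4:**
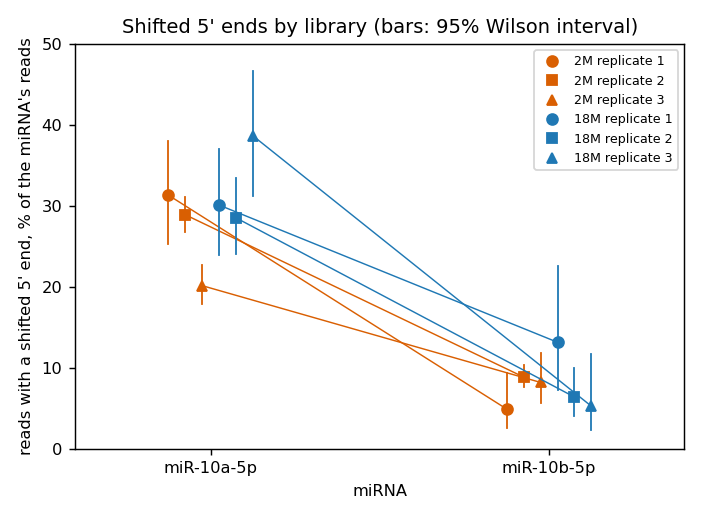
Share of reads with a shifted 5′ end in percent of all reads of miR-10a-5p and of miR-10b-5p, with 95% Wilson intervals, the values of each library joined by a line. Every line falls from miR-10a-5p (20.2% to 38.7%) to miR-10b-5p (4.91% to 13.2%).

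Between the ages, 0 of the 9 measures, shares of paralogs and arms included, passed the exact permutation test, which at 3 against 3 libraries cannot go below p = 0.10. Mean read length of miR-10a-5p reached this smallest p. It was 22.1, 22.0 and 22.2 nt in the 2M replicates and 22.0, 21.9 and 21.9 nt in the 18M replicates, a difference of -0.16 nt with no overlap (exact permutation p = 0.10, adjusted p = 0.90). With only read sequences of a mean of at least 1 RPM, the difference in length was -0.063 nt (exact permutation p = 0.4). Shifted reads were 26.8 ± 5.89% of miR-10a-5p in the 2M and 32.4 ± 5.45% in the 18M libraries (SD, n = 3, exact p = 0.50). The 3p arm of miR-10a held 0.773 ± 0.648% of the reads of both arms in the 2M libraries and 0.583 ± 0.069% in the 18M libraries (SD, n = 3, exact p = 0.80).

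Beside each read the table holds a 6mer seed viability, which is the percent of mouse cells left alive by an siRNA with the same 6 bases at positions 2 to 7, a mean over cell lines made by the authors. Seeds of low viability are termed toxic. The main seed of miR-10 had a viability of 74.7 and the shifted seed of miR-10a-5p and miR-10b-5p one of 52.1, against a median of 57.3 over all reads. miR-196 carried a seed of 60.2, and miR-615-3p the lowest of the main reads of the 7 miRNAs, 28.5. miR-10a-3p carried 83.9. The single miR-10b-3p read begins 1 base later than its RefSeq form, and its seed had 32.8.

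The 7 miRNAs held very different parts of their seed pools, all reads in the RISC with the same 6mer seed. Reads of miR-10a-5p and miR-10b-5p made up 74.6% of the pool of the main miR-10 seed when the RPM of the 6 libraries are added up, and in single libraries from 40.2% in 18M replicate 3 to 89.5% in 2M replicate 2, and miR-504-5p was the next contributor (9.03 RPM). The pool itself held 24.6, 121 and 66.6 RPM in 2M replicates 1, 2 and 3. In the 18M replicates it held 21.9, 34.3 and 20.7 RPM. The 2 miRNAs are part of this pool, so its movement with them is no separate result. In the pool of the shifted seed, added up in the same way, they made up 2.57%, under miR-339-5p (249 RPM).

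The 6mer of miR-196 is also that of let-7 reads that start 1 base late and of miR-1839-5p. Its pool held 1301 to 1538 RPM per library, of which miR-196 made up 1.18% in 2M replicate 3 and 0.0136% or less elsewhere. For miR-615-3p the share of its small pool (1.77 RPM on average) was 21.1% to 95.9%.

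Short reads assigned to Hox transcripts were also found in the RISC, and whether they derive from Hox mRNA was not tested. Reads that the table assigns to a Hox mRNA and to no miRNA numbered 43 sequences from 16 Hox genes. They summed to 5.76, 5.35 and 3.53 RPM in 2M replicates 1, 2 and 3 and to 7.42, 3.29 and 5.39 RPM in the 18M replicates. 2M replicates 2 and 3, the libraries with the most miR-10, were not the highest in these reads. Single Hox genes were assigned few reads. Hoxa3 was at 0.683 to 1.76 RPM and Hoxd12 at 0.512 to 1.14 RPM over the 6 libraries.

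Of the 472 other miRNAs that passed the filter, those whose log2(RPM + 1) followed the sum of miR-10a-5p and miR-10b-5p most closely over the 6 libraries were miR-181a-5p (Pearson r 0.918), miR-505-5p (0.905), miR-151-3p (0.887), miR-873a-3p (0.856) and miR-338-5p (0.843). These values are a description over 6 libraries that share depth and scaling. They are the highest of 472 correlations, and whether such values arise by chance was not tested. Spearman rho in the same order was 0.89, 0.71, 0.89, 0.71 and 0.83. The highest library of each of the 5 exceeded its lowest by only 1.16 to 1.71 times, compared with 11.9 times for the sum of miR-10. miR-181a-5p, for example, was at 11217, 12292 and 11581 RPM in 2M replicates 1, 2 and 3 and at 10430, 10703 and 10557 RPM in the 18M replicates.

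Marker miRNAs of other cell types were summed in 10 lists, all of whose miRNAs were found, to show what else differed between these libraries. The neuron list, led by miR-124-3p, was high in all of them, at 236488 to 251949 RPM at 2M and 211464 to 268573 RPM at 18M. The motor neuron list (3 of 3 found, led by miR-218-5p, which is also expressed in forebrain neurons) was at 9848, 5628 and 5723 RPM in 2M replicates 1, 2 and 3 and at 7198 to 8252 RPM at 18M. It was lowest in 2M replicates 2 and 3, the libraries with the most miR-10. Of its star strands, miR-218-1-3p was highest in 2M replicate 2 (22.7 RPM, others 6.65 to 15.4 RPM), and miR-218-2-3p was lowest in 2M replicates 2 and 3 (24.6 and 22.3 RPM, others 34.0 to 46.3 RPM).

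The erythrocyte list (4 of 4 found, led by miR-451a) was the only one of the 10 with its 2 highest sums in 2M replicates 2 and 3. It was at 2550, 3642 and 3689 RPM in 2M replicates 1, 2 and 3 and at 1307 to 2892 RPM at 18M. Of its members, miR-451a and miR-144-5p were also highest in 2M replicates 2 and 3. miR-144-3p was at 1288 RPM in 2M replicate 2 but at 556 RPM in 2M replicate 3, under 18M replicates 1 and 3 (787 and 588 RPM). miR-486a-5p was highest in 18M replicate 2 (187 RPM). 2M replicate 2 also held the highest sums of the oligodendrocyte list (14776 RPM, others 7365 to 11707), of the vessel list (17036 RPM, others 10139 to 15432) and of the muscle list (356 RPM, with 355 RPM in 18M replicate 3). Within the oligodendrocyte list miR-219a-5p was at 6882 RPM in 2M replicate 2, compared with 1720 to 5051 RPM in the others. Of the vessel members, miR-126a-5p alone was highest in another library, 2M replicate 1 (2677 RPM, 2637 RPM in 2M replicate 2). Within the muscle list miR-1a-3p (226 RPM) and miR-208b-3p (0.677 RPM) were highest in 2M replicate 2. miR-133a-3p was highest in 18M replicate 3 (218 RPM), and miR-206-3p was lowest in 2M replicate 2 (5.26 RPM). The pituitary list stood out in 2M replicate 1 (3342 RPM, others 414 to 484 RPM), the 2M library low in the 7 miRNAs. The sum of the immune list (6 of 6 found) was lower at 18M without overlap. It was at 2834 to 3402 RPM in the 18M libraries and at 3776 to 4111 RPM in the 2M libraries, 2M replicate 1 included. The immune list, too, was highest in 2M replicate 2. Of its members only miR-150-5p, the most abundant, had ages without overlap (2852 to 3124 RPM at 2M, 2068 to 2431 RPM at 18M). The ages of all its other members overlapped, and miR-146a-5p had the higher mean at 18M (369 RPM, 325 RPM at 2M). The choroid plexus and ependyma list and the olfactory and epithelial list spanned 1.19 and 1.66 times between their lowest and highest library. No defining marker of the lists was at 0 in any library. The part of these differences in the levels of the 7 miRNAs was not tested, and in tissue pieces more cells of a type and more of its RNA per cell cannot be told apart.

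**Figure D5:**
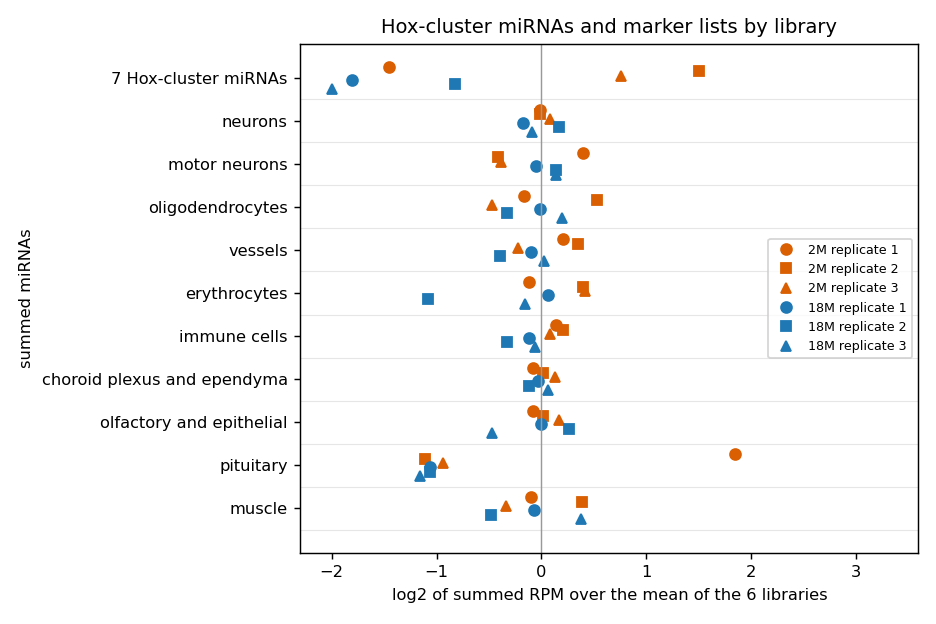
Summed RPM of the 7 Hox-cluster miRNAs and of each of 10 marker lists in each library, as log2 of the ratio to the mean of the 6 libraries. The 7 miRNAs span 11.4 times from the lowest to the highest library, the pituitary list 8.07 times because of 2M replicate 1, and the other lists 1.19 to 2.82 times.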

How the data were processed

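Ago-RP-Seq libraries of cortex and hippocampus (3 of 2M, 3 of 18M) were analysed from the deposited table of read sequences. Per the study's methods the authors ran the SPOROS pipeline: reads were trimmed (Trim Galore, in the submitters' processing notes, no version), collapsed, rid of rare reads and matched to lists of mouse small RNAs. The genome build is not given in the sources used here. The deposited RPM values were scaled by the authors to the same total in each library (999442 to 999856 in the table). A deposited signal column, the authors' total over libraries, was not used. The 6mer seed viability is a score deposited by the authors, a percent averaged over cell lines that can pass 100.

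Here RPM were added up per miRNA label, a read with several labels counting under each. Whole reads were recovered from the RPM steps (100% of values). limma 3.58.1 (R 4.3.3; lmFit, eBayes with trend) was run on log2(RPM + 1), keeping labels whose mean reached 10 RPM, and p-values were adjusted by Benjamini-Hochberg (threshold 0.05). This scale understates changes of low miRNAs. The fit was checked on simulated reads with known changes. Measures within a miRNA, and shares of paralogs and arms, were compared with exact two-sided permutation tests (smallest p 0.10 for 3 against 3). Intervals are at 95%. Groups came from the sample titles. The named miRNAs were the 7 members, their other arms, the miR-99 and miR-100 relatives, the 3 main reads of each member, the 5 miRNAs most like miR-10, and the marker lists where described. Members and lists were chosen with earlier results of these data known. Alternatives were pseudocounts 0.1 and 5, means of 1 and 100 RPM, median-of-ratios scaling, a replicate block, no trend, edgeR 4.0.16 (TMM) and DESeq2 1.42.0 on recovered reads, single-label reads, and leaving out each library. Only in the comparison of miR-10a-5p with miR-10b-5p was a test added after the values were seen. Reads were summed in Python 3.11.15 with pandas 2.3.3 and numpy 2.4.6, permutation tests were run in scipy 1.17.1, and plots were drawn with matplotlib 3.10.9.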

Additional observations from a re-analysis of the deposited data

How the results depend on the processing

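The direction of the miR-10 difference between the ages kept in every alternative that gave a value. Neither miRNA passed a filter of 100 RPM, and the size of the difference moved most when a 2M library was left out. Leaving out each library in turn, the log2 difference of 18M and 2M ranged from -2.40 to -1.06 for miR-10a-5p and from -2.24 to -1.37 for miR-10b-5p, which fell under the filter without 2M replicate 2. The summed difference ranged from -92.4 to -32.1 RPM for the 7 miRNAs and from -81.9 to -23.7 RPM for miR-10a-5p with miR-10b-5p.

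The number of miRNAs called was 23 by limma, 15 with the trend left out and 14 after median-of-ratios scaling. It was 15 with single-label reads and 2 among miRNAs above 100 RPM. edgeR called 14 of 474 miRNAs and DESeq2 46 of 474. DESeq2 alone called a member, miR-10a-5p, 1 of the 2 members in its fit. The members were chosen on this contrast, so nothing is read from that call. Leaving out each library, the number called by limma ranged from 0 to 15. With the replicate number as a block it was 1. Same-numbered libraries deviated from their age means with correlations of -0.17, -0.22 and -0.10 over 474 miRNAs. Every library thus correlated better with another number than with its own. The labels do not say what the number stands for, and deviations within an age constrain one another. Whether the numbers pair the samples therefore cannot be decided from these values.

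Within the miRNAs, and in the shares of paralogs and arms, several differences of 18M and 2M that were small changed sign when a library was left out. The share of miR-10b-5p ranged from -10.9 to 3.07 percentage points, the 3p share of miR-10a from -0.482 to 0.158, the shifted share of miR-10b-5p from -1.49 to 2.45, its share not in the hairpin from -0.635 to 0.719 and its mean length from -0.106 to 0.0091 nt. The cause was not tested.

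Depth limits miR-10a-3p, miR-10b-3p and, outside 2M replicate 3, the miR-196 paralogs, which lay at or near 3 reads.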
